A study of Rattus norvegicus with 12 samples.

Results

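A group of 5 liver marker genes is followed here through tumor development in Long Evans Cinnamon (LEC) rats: Afp, Gpc3, Gstp1, Ggt1 and Aldh3a1. They are the probe sets that the array annotation gives to these symbols, which makes these genes and 6 probe sets among the 14217 genes and 31042 probe sets tested. Gpc3 has 2 probe sets and each of the others has 1. The genes were chosen by name and not by a rule on measured values, though with earlier results of these data known.

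Afp and Gpc3 are oncofetal genes. Afp encodes alpha-fetoprotein, the main serum protein of the fetus, which the liver largely stops making after birth and which many hepatocellular carcinomas make again. Gpc3 encodes a heparan sulfate proteoglycan anchored at the cell surface, abundant in fetal liver and used as a tissue marker of hepatocellular carcinoma. Gstp1, Ggt1 and Aldh3a1 encode enzymes that pathologists and toxicologists have used to find early lesions in rat liver. Gstp1 encodes the placental form of glutathione transferase, which joins glutathione to reactive compounds, is scarce in normal rat hepatocytes and fills the cells of preneoplastic foci. Ggt1 encodes gamma-glutamyltransferase, a membrane enzyme that starts the breakdown of glutathione outside the cell and is found in bile ducts and in many foci. Aldh3a1 encodes a cytosolic aldehyde dehydrogenase that is low in normal rat liver, inducible through the aryl hydrocarbon receptor and known from rat hepatomas.

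Liver RNA was hybridized to 12 Affymetrix rat expression arrays. LEC rats lack a working Atp7b, the copper exporter of hepatocytes, so copper builds up in the liver, and hepatitis and tumors follow spontaneously. Long Evans Agouti (LEA) rats are the related strain without this defect. All animals are labelled male and were kept free of specific pathogens and viral antibodies. The groups were LEC tumor liver at 67 weeks (4 arrays), LEC nontumor liver next to the tumors at 67 weeks (4 arrays), LEA liver at 67 weeks (1 array), and LEC liver at 4, 26 and 39 weeks (1 array each). Each tumor or nontumor array held mixed RNA of 2 of 8 paired specimens. The other 4 arrays held RNA pools whose number of rats is not stated. The type of the tumors is not given in the labels, and nontumor and LEA liver are both labelled normal. It is also not said which tumor and nontumor arrays hold matching specimens, so the main fit did not pair them. Nor is it said if the pools otherwise share rats, so p-values measure only the spread between these RNA pools. With so few arrays, every value has limited precision.

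Values are log2 expression levels as deposited. A difference of 1 is a doubling, and the level of a probe set cannot be set against that of another. Differences have the first-named group minus the other, ± standard error, from a limma fit over all 12 arrays, and "adjusted p" is the Benjamini-Hochberg value over all 31042 probe sets; it passed when under 0.05. The lone arrays are assumed in that fit to vary like the replicated groups. Levels of groups of 4 are means ± SD.

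Sex-linked genes went against the label of male on 10 of the 12 arrays, namely all tumor, nontumor, LEA and 4-week arrays. Xist, the RNA of the inactive X chromosome of females, lay between 11.36 and 13.12 on these 10, and the Y-linked Eif2s3y lay between 3.65 and 3.81 on the same arrays. The array labelled 26 weeks had 5.27 for Xist and 8.90 for Eif2s3y, and the array labelled 39 weeks had 5.67 and 8.18. These 2 arrays had the pattern of the male label and differed from the other 10 in it; they enter no test here. Pearson correlations across probe sets were 0.968 to 0.994 between tumor arrays, 0.975 to 0.993 between nontumor arrays and 0.845 to 0.933 between a tumor and a nontumor array. Alb, the defining product of hepatocytes, was bright in every group, at 13.93 ± 0.80 on tumor arrays, 14.56 ± 0.02 on nontumor arrays (n = 4 each) and 14.59 on the LEA array. Of 14 hepatocyte marker genes 11 were called lower in tumors (29.2% of all genes were), Alb not among them. Probe sets for bacterial RNA that no rat tissue holds reached 5.52 to 5.67 on tumor arrays, 5.88 to 6.01 on nontumor arrays, 6.11 on the LEA array and 6.15 to 6.22 on the age series, which gives a floor for the levels below.

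The promoters of the 3 markers that changed in tumors are shown so that the sequence near each start can be read beside the values. RefSeq's table for the GRCr8 build held 4 of the 5 genes, not Aldh3a1. Each stretch runs 5′ to 3′ on the gene's strand over 300 bases, 250 before the annotated start and 50 after it, with searched motifs in capitals on either strand. Afp lies at chr14:17875596-17875895, minus strand, Gpc3 at chrX:137157549-137157848, minus strand, and Gstp1 at chr1:210769656-210769955, minus strand.
Afp promoter: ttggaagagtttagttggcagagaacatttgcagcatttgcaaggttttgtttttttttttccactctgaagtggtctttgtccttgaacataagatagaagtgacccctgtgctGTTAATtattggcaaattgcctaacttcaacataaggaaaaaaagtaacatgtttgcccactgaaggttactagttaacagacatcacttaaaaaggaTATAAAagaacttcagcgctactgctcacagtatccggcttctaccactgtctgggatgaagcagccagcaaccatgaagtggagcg
Gpc3 promoter: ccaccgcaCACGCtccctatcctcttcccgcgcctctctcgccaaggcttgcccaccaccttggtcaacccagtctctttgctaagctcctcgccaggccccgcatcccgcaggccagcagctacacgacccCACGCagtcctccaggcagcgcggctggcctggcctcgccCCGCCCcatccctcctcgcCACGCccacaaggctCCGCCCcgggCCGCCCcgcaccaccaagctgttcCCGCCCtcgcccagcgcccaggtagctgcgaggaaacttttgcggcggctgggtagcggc
Gstp1 promoter: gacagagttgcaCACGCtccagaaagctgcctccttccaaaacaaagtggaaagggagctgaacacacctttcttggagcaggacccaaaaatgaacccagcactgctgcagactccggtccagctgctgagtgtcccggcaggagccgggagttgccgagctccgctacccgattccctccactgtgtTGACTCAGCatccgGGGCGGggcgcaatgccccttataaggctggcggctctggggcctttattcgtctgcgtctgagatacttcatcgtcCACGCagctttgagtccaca
The motifs searched were the AP-1 site TGACTCA, the antioxidant response element core TGACNNNGC, the HNF1 site core GTTAAT, the TATA box TATAAA, the GC box GGGCGG and the xenobiotic response element core GCGTG.

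The Afp window holds GTTAAT at -135 to -130 and TATAAA at -37 to -32, counted from the start. HNF1 is a hepatocyte transcription factor, and GTTAAT occurs in 7.45% of 33469 rat promoter windows of this length, TATAAA in 14.2%. The Gpc3 window has neither and holds 4 GC boxes, the letters bound by Sp1 in many genes, and 3 xenobiotic response element cores. A GC box occurs in 33.1% of windows and the xenobiotic core in 29.7%. The Gstp1 window holds TGACTCA at -61 to -55, which AP-1 (Jun and Fos proteins) can bind, and the overlapping TGACTCAGC at -61 to -53, which has the letters of an antioxidant response element. TGACTCA occurs in 4.63% of windows and TGACNNNGC in 12.1%. Gstp1 also has a GC box at -47 to -42 and 2 xenobiotic cores. The strong enhancer known for rat Gstp1 lies further upstream and is not in this window. The Ggt1 window at chr20:13095055-13095354, minus strand, holds none of these letters. It lies inside the Ggt1 gene, whose span reaches 13103551 at its 5′ end. The Gstp1 window also lies inside its gene span, which reaches 210770242. A single window per gene was searched, so sequence near the 5′ ends of these spans is not covered. A match is a description of letters and not a shown binding site.

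The 5 markers did not move as a group between tumor and nontumor liver. Gpc3 and Gstp1 rose in tumors, Afp fell, and Ggt1 and Aldh3a1 did not pass the test. Of 31042 probe sets, 63.9% passed the same test (31.7% higher and 32.2% lower in tumors), so that 3 of 5 markers called is a share close to that of the whole array. The plot of levels by array shows each value.

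**Figure D1:**
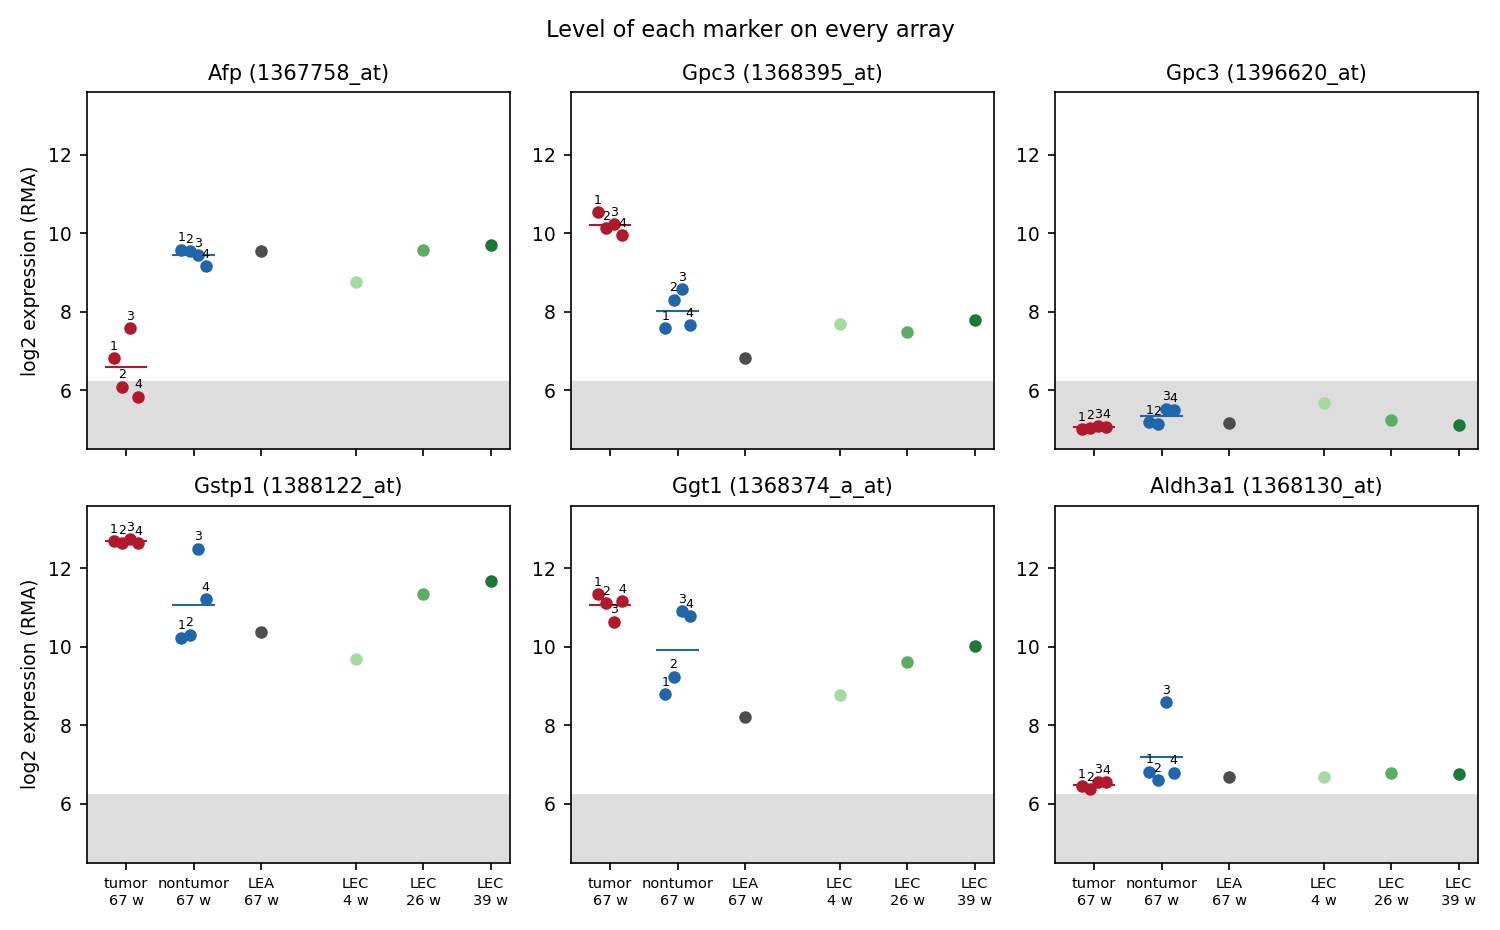
Level of each of the 6 probe sets (log2 expression, vertical axis) on every array, by group on the horizontal axis: tumor and nontumor LEC liver at 67 weeks, LEA liver at 67 weeks and LEC liver at 4, 26 and 39 weeks. Points are arrays, digits are the array numbers in the titles, short lines are means of 4, and the grey band reaches up to 6.22, the highest level of any absent bacterial RNA on any array (at most 5.67 on tumor arrays). Gstp1 spans 12.65 to 12.75 on tumor arrays, against 10.24 to 12.50 on nontumor arrays.

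Afp, the marker most used in blood tests for hepatocellular carcinoma, was lower in these tumors. Its level was 6.82, 6.09, 7.59 and 5.84 on tumor arrays 1 to 4, against 9.58, 9.55, 9.44 and 9.17 on nontumor arrays 1 to 4. Every tumor array was below every nontumor array, and the lowest came close to the floor of absent RNA. The mean was 6.58 ± 0.79 in tumors and 9.44 ± 0.18 in nontumor liver (n = 4 each), so Afp fell by 2.85 ± 0.34 on the log2 scale, a 7.22-fold difference (95% interval -3.62 to -2.08; limma adjusted p = 0.00014). An exact permutation test of these 8 values, two-sided, gave p = 0.0286, the smallest that 4 against 4 allows. Over all probe sets, 60.5% had no overlap between the 2 groups.

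The Afp level of adult LEA liver lay among those of nontumor liver, above the 6.11 that absent RNA reached on the LEA array. The LEA array had 9.54, inside the nontumor range of 9.17 to 9.58, and the difference was -0.10 ± 0.53 (95% interval -1.32 to 1.11; limma adjusted p = 0.96). Against LEA, Afp in tumors fell by 2.96 ± 0.53 (limma adjusted p = 0.0029). In the age series Afp was 8.75 at 4 weeks, 9.57 at 26 weeks and 9.71 at 39 weeks. The youngest liver thus had the lowest Afp of the arrays outside the tumors. Nontumor liver at 67 weeks differed from the 4-week array by 0.68 ± 0.53 (limma adjusted p = 0.65).

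Tumor arrays differed among themselves in Afp by 1.75 log2 units, and hepatocyte markers ran in the same order. The median level of 14 hepatocyte marker genes was 12.45, 11.13, 13.12 and 8.78 on tumor arrays 1 to 4, against 13.73, 13.79, 13.74 and 13.56 on nontumor arrays. Array 3 was highest and array 4 lowest for both Afp and these markers. Of the 14 markers, 11 fell in tumors and none rose, with a median difference of -2.22, beside 0.07 over all genes, of which 67.9% were called (38.8% higher, 29.2% lower). The count was 4, 5, 4 and 6 when nontumor array 1, 2, 3 or 4 was left out and 5 without tumor array 2. On tumor array 4, 2 of the markers were within the range of absent RNA. In tissue RNA, fewer cells of a type and less RNA per cell cannot be told apart, and the part of hepatocyte content in the Afp result was not tested.

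Genes of the albumin cluster and factors known to control Afp gave a mixed picture. Of 14 measured, Afp included, 3 rose and 8 fell, beside 38.8% and 29.2% of all genes, with a median difference of -1.18. The largest fall was that of Afm, the afamin gene and a neighbour of Afp in the albumin family, at 9.85, 7.94, 10.91 and 6.57 on tumor arrays, against 12.80, 12.81, 12.62 and 12.37 on nontumor arrays. Its difference of -3.84 ± 0.80 passed the test (limma adjusted p = 0.0031), and its tumor arrays ran in the order of Afp. Alb itself differed by -0.62 ± 0.34 (limma adjusted p = 0.13) and Gc, the vitamin D binding protein of the same family, by -2.10 ± 0.87 (limma adjusted p = 0.060), neither past the threshold, though a further probe set of Gc was called lower.

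Both repressors that silence Afp after birth in mice were higher in tumors. Zhx2, one of them, had 9.12, 9.18, 8.90 and 9.57 on tumor arrays, against 8.64, 8.60, 8.55 and 8.21 on nontumor arrays. Zbtb20, a zinc finger repressor, had 10.77, 10.72, 10.25 and 10.99 on tumor arrays, against 10.09, 10.05, 9.75 and 9.60 on nontumor arrays. Neither gene's groups overlapped, and 60.5% of all probe sets had no overlap. Zhx2 rose by 0.69 ± 0.15 (limma adjusted p = 0.0039) and Zbtb20 by 0.81 ± 0.17 (limma adjusted p = 0.0032), and of 5 further Zbtb20 probe sets 3 were called higher and 2 were not called. The third gene called higher was Nr5a2, a nuclear receptor that activates Afp, at 0.86 ± 0.33 (limma adjusted p = 0.043). That call was lost under both other scalings and without nontumor array 3 or 4 or tumor array 1, 2 or 4, and 2 further probe sets were not called. Among hepatocyte activators, Foxa3 fell by 2.45 ± 0.26, Foxa1 by 1.23 ± 0.14, Hnf4a by 1.14 ± 0.18 and Cebpa by 1.14 ± 0.18, and Foxa2 differed by 0.41 ± 0.24 without passing. The part of any of these factors in the Afp result was not tested.

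Gpc3 was the marker with the clearest rise. The brighter probe set had 10.54, 10.13, 10.23 and 9.96 on tumor arrays 1 to 4, against 7.58, 8.31, 8.57 and 7.66 on nontumor arrays. All tumor arrays lay above all nontumor arrays by more than 1 log2 unit, and 60.5% of all probe sets had no overlap. The mean was 10.22 ± 0.24 in tumors and 8.03 ± 0.48 in nontumor liver (n = 4 each), a rise of 2.19 ± 0.23 or 4.55-fold (95% interval 1.66 to 2.71; limma adjusted p = 7e-05). The exact permutation test gave p = 0.0286.

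Outside tumors, Gpc3 was lowest in LEA liver. The LEA array had 6.83, below each nontumor array, and the LEC arrays had 7.68 at 4 weeks, 7.49 at 26 weeks and 7.79 at 39 weeks. Tumors exceeded LEA by 3.38 ± 0.36, or 10.4-fold (limma adjusted p = 0.00022), while 39.6% of probe sets were called in that comparison. Nontumor liver exceeded LEA by 1.20 ± 0.36 (95% interval 0.37 to 2.02), and this did not pass after adjustment (limma adjusted p = 0.23). Nontumor liver differed from the 4-week array by 0.35 ± 0.36 (limma adjusted p = 0.75).

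The second Gpc3 probe set did not measure a level above the floor. Its values were 5.01 to 5.09 on tumor arrays and 5.15 to 5.53 on nontumor arrays, 5.17 on the LEA array and 5.68, 5.23 and 5.12 at 4, 26 and 39 weeks. All 12 values were within the range of absent bacterial RNA. It was called lower in tumors by 0.29 ± 0.10 (limma adjusted p = 0.035), against the direction of the brighter probe set, and that call was lost after a second quantile normalization (limma adjusted p = 0.17) and without nontumor array 3 or 4 or any single tumor array. With the mean over both probe sets, Gpc3 rose by 0.95 between tumor and nontumor liver (limma adjusted p = 0.00041) and by 1.63 against LEA (limma adjusted p = 0.00063), smaller differences that both passed.

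The whole measured glypican family was higher in tumors. All 5 glypicans with a probe set rose, Gpc3 included, where 38.8% of all genes were called higher, and their median difference was 0.95, beside 0.07 over all genes. Gpc6 had 9.18, 9.04, 8.59 and 9.42 on tumor arrays, against 7.34, 7.22, 7.43 and 7.53 on nontumor arrays. Gpc4 had 11.59, 11.68, 10.90 and 11.62 on tumor arrays, against 10.57, 10.52, 10.45 and 10.46 on nontumor arrays. Neither gene's groups overlapped, as for 60.5% of all probe sets, and of 3 further Gpc6 probe sets 1 was called higher and 2 were not called. Gpc6 rose by 1.68 ± 0.16, Gpc4 by 0.95 ± 0.16, Gpc1 by 0.94 ± 0.14 and Gpc2 by 0.27 ± 0.08, each with a limma adjusted p of 0.016 or less. The Gpc2 call was lost when array medians were subtracted, and Gpc3 and Gpc6 were the members past 2-fold. On the LEA array the glypicans other than Gpc3 had 6.07 for Gpc1, 6.85 for Gpc2, 10.32 for Gpc4 and 7.22 for Gpc6. The Gpc1 value was within the range of absent RNA, which reached 6.11 there, and nontumor arrays had Gpc1 at 6.17 to 6.56.

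Markers of bile duct and of stellate cells were higher in tumors, as Gpc3 was. All 9 bile duct markers rose in tumors, where 38.8% of all genes were called higher. Their median level was 11.29, 11.15, 11.34 and 11.69 on tumor arrays, against 7.74, 8.66, 8.92 and 7.76 on nontumor arrays. Of 10 stellate cell and matrix markers 9 rose, with median levels of 10.28 to 11.19 on tumor arrays and 8.33 to 8.86 on nontumor arrays. Over the nontumor arrays, the bile duct median had the order of Gpc3, with array 3 highest, then 2, 4 and 1. It did not follow Gpc3 elsewhere, since tumor array 4 had the highest bile duct median of the tumor arrays and the lowest Gpc3, and the median was 6.88, 8.26 and 8.43 at 4, 26 and 39 weeks. No bile duct marker was within the range of absent RNA on a tumor or nontumor array, and of the matrix markers Lum, a collagen-binding proteoglycan, was in that range on 3 nontumor arrays. The part of these cell types in the Gpc3 result was not tested.

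Gstp1 was uniformly high in tumors and uneven outside them. It had 12.69, 12.66, 12.75 and 12.65 on tumor arrays 1 to 4, against 10.24, 10.31, 12.50 and 11.22 on nontumor arrays 1 to 4. The groups did not overlap, as for 60.5% of all probe sets. Nontumor array 3 came close to the tumor arrays while nontumor arrays 1 and 2 lay near LEA liver at 10.39. The SD was 0.04 around 12.69 in tumors and 1.06 around 11.07 in nontumor liver (n = 4 each). Gstp1 rose by 1.62 ± 0.44, or 3.07-fold (95% interval 0.62 to 2.61; limma adjusted p = 0.011), and the exact permutation test gave p = 0.0286. All 9 bile duct markers also rose in tumors, and the part of bile duct cells in the Gstp1 result was not tested.

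Gstp1 was higher on the later arrays of the age series. It was 9.69 at 4 weeks, 11.36 at 26 weeks and 11.68 at 39 weeks, with no replicate. The differences from 4 weeks were 1.67 and 1.99, both past 2-fold higher, as were 1.73% of probe sets at 26 weeks and 1.74% at 39 weeks. These are the 2 arrays that differ from the 4-week array in Xist and Eif2s3y, and age and that difference cannot be told apart. The bile duct median also differed, at 6.88 at 4 weeks, 8.26 at 26 weeks and 8.43 at 39 weeks, and its part was not tested. Nontumor liver at 67 weeks exceeded the 4-week array by 1.37 ± 0.69 (95% interval -0.20 to 2.95; limma adjusted p = 0.44). Against LEA, tumors were 2.29 ± 0.69 higher (limma adjusted p = 0.029), with an adjusted p of 0.052 without tumor array 1 or 2, and nontumor liver was 0.68 ± 0.69 higher (limma adjusted p = 0.74).

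Gstp1 stood against its family. Of 21 glutathione transferases measured, 2 rose in tumors and 18 fell, beside 38.8% and 29.2% of all genes, with a median difference of -1.32. The other one that rose was Gstm5, at 8.33, 7.92, 8.26 and 8.54 on tumor arrays, against 6.75, 7.88, 7.05 and 6.68 on nontumor arrays, a rise of 1.17 ± 0.26 (limma adjusted p = 0.0039). The mu class, to which Gstm5 belongs, also held falling members, such as Gstm3 at -1.66 ± 0.28. The largest falls were those of Gsta3, an alpha class enzyme, by 2.95 ± 0.69, of the mitochondrial and peroxisomal Gstk1 by 2.80 ± 0.37, and of Gstz1, an enzyme of tyrosine breakdown, by 2.54 ± 0.40. Gsta3 on the tumor arrays was 9.59, 7.64, 10.04 and 6.76, which is the order of Afp and of the hepatocyte markers, against 10.70, 11.53, 11.40 and 12.19 on nontumor arrays. Probe sets of closely related transferases can take up each other's RNA, and this was not tested.

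Factors known to act on the Gstp1 promoter and enhancer gave few calls. Of 14 measured, 4 rose and 2 fell, beside 38.8% and 29.2% of all genes, with a median difference of 0.36. The small Maf proteins pair with Nrf2 on antioxidant response elements. Mafk rose by 0.47 ± 0.09 and Mafg by 0.43 ± 0.08, calls that a second quantile normalization removed, and Maff by 0.96 ± 0.33, a call lost in 7 of 8 fits without 1 array. Jund, an AP-1 subunit, rose by 0.44 ± 0.10, with a further probe set called the other way. Cebpa, described as a repressor of Gstp1 in rat, fell by 1.14 ± 0.18, and Bach1, a repressor at Maf sites, by 0.33 ± 0.11, the second call being lost in 5 of 8 such fits. Nfe2l2, which encodes Nrf2, differed by 0.44 ± 0.18 (limma adjusted p = 0.055), Jun by 0.30 ± 0.16 and Fos by 0.71 ± 0.60, none past the threshold, while 1 further probe set of Jun was called higher and 1 of Fos lower.

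Ggt1 was high in tumors and already high on 2 of the 4 nontumor arrays. It had 11.34, 11.11, 10.64 and 11.17 on tumor arrays 1 to 4, against 8.80, 9.24, 10.91 and 10.78 on nontumor arrays 1 to 4. Nontumor arrays 3 and 4 were above tumor array 3, so the groups overlapped. The mean was 11.06 ± 0.30 in tumors and 9.93 ± 1.07 in nontumor liver (n = 4 each). The difference of 1.13 ± 0.46 (95% interval 0.09 to 2.18) did not pass (limma adjusted p = 0.056; exact permutation p = 0.0857). It passed at 1.46 without nontumor array 3 (limma adjusted p = 0.022), at 1.41 without nontumor array 4 (limma adjusted p = 0.028) and at 1.66 with array weights (limma adjusted p = 0.0045). Bile duct markers, all 9 of them, were higher in tumors too, and the part of bile duct cells in the Ggt1 values was not tested.

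Ggt1 was at its lowest on the LEA array. That array had 8.22, below all 8 arrays of LEC liver at 67 weeks and below LEC at 4, 26 and 39 weeks, which had 8.78, 9.62 and 10.03. Tumors exceeded LEA by 2.84 ± 0.73, or 7.18-fold (limma adjusted p = 0.014). Nontumor liver exceeded LEA by 1.71 ± 0.73 (95% interval 0.06 to 3.36; limma adjusted p = 0.39), and nontumor arrays 3 and 4 alone were 2.69 and 2.56 above it, against 0.58 and 1.02 for arrays 1 and 2. At 26 and 39 weeks Ggt1 was 0.84 and 1.25 above the 4-week array, the second past 2-fold, as were 1.74% of probe sets at 39 weeks. As for Gstp1, age cannot be told apart from the difference of these arrays in Xist and Eif2s3y. The bile duct median was 6.88, 8.26 and 8.43 at 4, 26 and 39 weeks, and its part was not tested. Nontumor liver differed from 4 weeks by 1.15 ± 0.73 (limma adjusted p = 0.56).

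The rest of the glutathione cycle did not follow Ggt1. Of 15 measured genes, Ggt1 included, 2 rose and 9 fell in tumors, beside 38.8% and 29.2% of all genes. Their median difference was -0.50. Gclc, the catalytic subunit of the first enzyme of glutathione synthesis, had 9.71, 9.24, 10.08 and 9.10 on tumor arrays, against 11.12, 11.13, 11.46 and 11.45 on nontumor arrays. It fell by 1.76 ± 0.21, its partner subunit Gclm by 1.29 ± 0.20, the synthetase Gss by 0.63 ± 0.13 and the reductase Gsr by 0.82 ± 0.14, each with a limma adjusted p of 0.0033 or less. Ggct and Lap3, which act on the products of gamma-glutamyl transfer and on dipeptides, fell by 1.13 ± 0.11 (Ggct) and fell by 1.32 ± 0.15 (Lap3). Slc1a5, a glutamine carrier, rose by 1.16 ± 0.09, and Dpep1, which splits the cysteinylglycine that Ggt1 releases, by 0.67 ± 0.11. Among the relatives of Ggt1, Ggt5 fell by 0.39 ± 0.10 and Ggt7 differed by 0.22 ± 0.14 without passing.

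**Figure D2:**
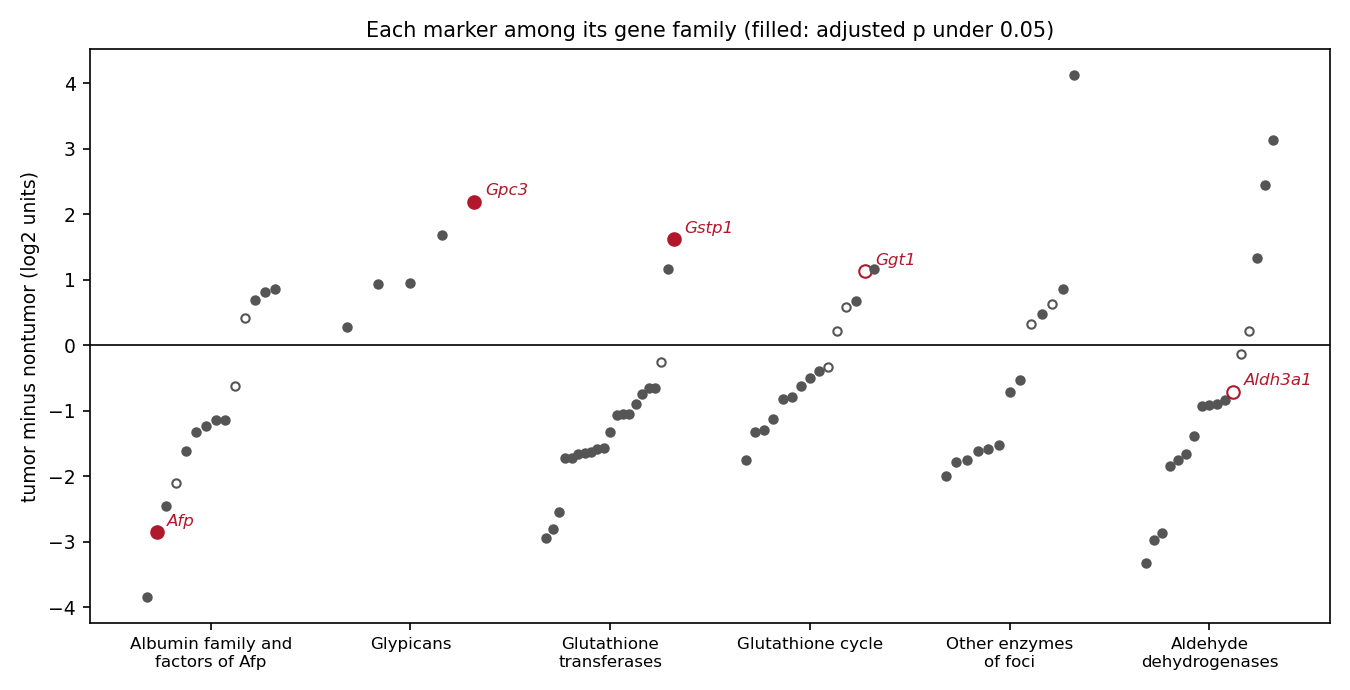
Difference between tumor and nontumor liver (log2 units, vertical axis) for each measured gene of 6 lists, placed along the horizontal axis by list and ordered by value. Each point is a gene, red points are the 5 markers, and filled points have an adjusted p under 0.05. Gstp1 (1.62) is at the top of its family, in which 18 of 21 members fell, beside 29.2% of all genes, and all 5 glypicans are above 0.

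Aldh3a1 was not raised in tumors. It had 6.46, 6.38, 6.57 and 6.56 on tumor arrays 1 to 4, against 6.82, 6.61, 8.59 and 6.80 on nontumor arrays 1 to 4. The groups did not overlap, which held for 60.5% of all probe sets, and tumors were lower. Still, 3 nontumor arrays were close to the tumor arrays and array 3 stood alone. The mean was 6.49 ± 0.09 in tumors and 7.20 ± 0.93 in nontumor liver (n = 4 each), and the difference of -0.71 ± 0.39 did not pass (95% interval -1.59 to 0.17; limma adjusted p = 0.14). Without nontumor array 3 the difference was -0.25 and passed (limma adjusted p = 0.046). The exact permutation p was 0.0286.

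Elsewhere Aldh3a1 stayed in a narrow band not far above the floor. The LEA array had 6.68, and the LEC arrays had 6.69, 6.79 and 6.75 at 4, 26 and 39 weeks. Tumors differed from LEA by -0.18 ± 0.61 (limma adjusted p = 0.83) and nontumor liver by 0.52 ± 0.61 (limma adjusted p = 0.78), with wide intervals of -1.58 to 1.21 and -0.87 to 1.92. Nontumor liver differed from the 4-week array by 0.51 ± 0.61 (limma adjusted p = 0.79).

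Among aldehyde dehydrogenases, other members than Aldh3a1 were higher in tumors. Of 17 measured, Aldh3a1 included, 3 rose and 11 fell, beside 38.8% and 29.2% of all genes, with a median difference of -0.92. Aldh1a2, which makes retinoic acid, had 11.92, 12.02, 11.08 and 12.22 on tumor arrays, against 8.45, 8.67, 8.91 and 8.64 on nontumor arrays, a rise of 3.14 ± 0.23. Aldh1a3, a second retinal dehydrogenase, rose by 2.45 ± 0.24, and Aldh18a1, an enzyme of proline synthesis, by 1.33 ± 0.14. Aldh1a1, also a retinal dehydrogenase, fell by 0.92 ± 0.29 (limma adjusted p = 0.020), a call lost in 4 of 8 fits without 1 array. The folate enzymes Aldh1l2 and Aldh1l1 fell by 3.32 ± 0.45 (Aldh1l2) and fell by 2.97 ± 0.58 (Aldh1l1), and the proline enzyme Aldh4a1 fell by 2.86 ± 0.40.

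Genes of the aryl hydrocarbon receptor, the route by which Aldh3a1 is induced, did not change together. Of 10 measured, Aldh3a1 included, 1 rose and 3 fell in tumors, beside 38.8% and 29.2% of all genes, with a median difference of -0.19. Cyp1b1 rose by 2.66 ± 0.13, while Cyp1a2 fell by 4.12 ± 0.52, Nqo1 fell by 1.59 ± 0.27 and Cyp1a1 fell by 1.56 ± 0.25. Cyp1a1, the classical target, had 8.60, 8.36, 8.87 and 9.50 on nontumor arrays 1 to 4. The part of the receptor in the Aldh3a1 values was not tested. The receptor gene Ahr differed by 0.27 ± 0.26 and its partner Arnt by -0.29 ± 0.20, neither past the threshold, with a further Ahr probe set called lower.

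None of the 5 markers was called between nontumor and LEA liver or between nontumor liver and the 4-week array. In these limma comparisons 0.544% and 0.377% of probe sets were called. Before adjustment, the limma fit over all probe sets gave Gpc3 0.0096 and Ggt1 0.044 against LEA, and against 4 weeks it gave no marker a value under 0.05. The comparisons share the nontumor arrays, and those against LEA share the LEA array. The plot of the differences sets them side by side.

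**Figure D3:**
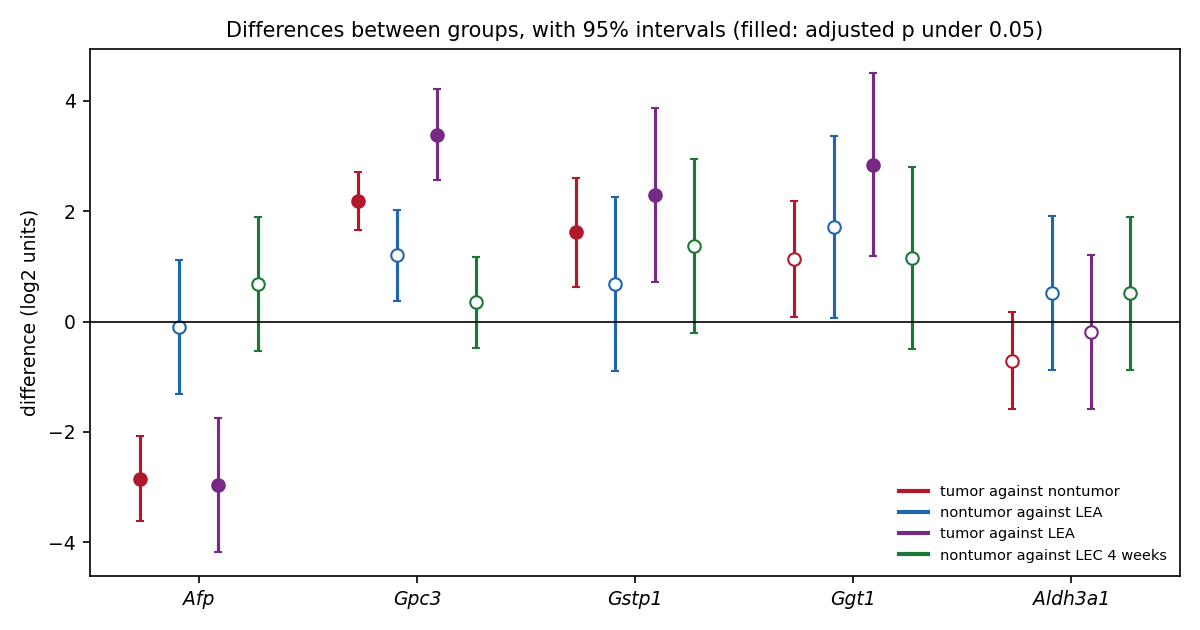
Difference (log2 units, vertical axis) for each marker on the horizontal axis in 4 comparisons: tumor against nontumor, nontumor against LEA, tumor against LEA and nontumor against LEC at 4 weeks. Points are limma estimates, bars are 95% intervals and filled points have an adjusted p under 0.05. Afp is below 0 in both tumor comparisons (-2.85 and -2.96), and the intervals that involve a lone array are wider.

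The unevenness of Gstp1, Ggt1 and Aldh3a1 in nontumor liver was concentrated on particular arrays. On nontumor array 3, Aldh3a1 was 1.77 above the next nontumor array and Gstp1 1.28 above it. Ranked by this gap over all 31042 probe sets, Aldh3a1 was at place 4 and Gstp1 at place 10. Only array 3 was ranked, the array on which both are highest, so these places are a description. On array 3, 24 probe sets (0.0773%) were at least 2-fold above every other nontumor array. Arrays 1, 2 and 4 had 20, 13 and 16 such probe sets. Ggt1 was not among the 24 of array 3, with array 4 only 0.13 lower. Gpc3 was not either, though highest on array 3 at 8.57, by 0.25. Afp showed no such pattern, at 9.44 on array 3.

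Akr7a3 and Akr1b8, also raised in rat foci, divided the nontumor arrays as Ggt1 did, 3 and 4 against 1 and 2. They are picked from 13 measured enzymes of foci, which did not all do so. Hmox1 was likewise higher on arrays 3 and 4, at 11.57, 11.36, 11.99 and 12.26 on nontumor arrays 1 to 4. Nqo1 went the other way, at 10.95, 10.89, 10.21 and 10.06. Akr7a3, an aflatoxin aldehyde reductase, had 10.77, 10.82, 12.50 and 12.75 on nontumor arrays 1 to 4, 10.33 on the LEA array and 10.38, 12.58 and 12.93 at 4, 26 and 39 weeks. Akr1b8, an aldose reductase-like enzyme, had 8.86, 9.30, 11.78 and 12.18 on nontumor arrays. Gpx2, an epithelial glutathione peroxidase, had instead 7.51, 9.32, 9.97 and 8.04, with arrays 2 and 3 highest, as for the bile duct keratin Krt19 at 7.74, 9.08, 9.73 and 7.76. The bile duct median was 7.74, 8.66, 8.92 and 7.76 on these arrays, so array 4 was high in Ggt1, Akr7a3 and Akr1b8 with a bile duct median near that of array 1. The part of cell content in these differences was not tested.

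**Figure D4:**
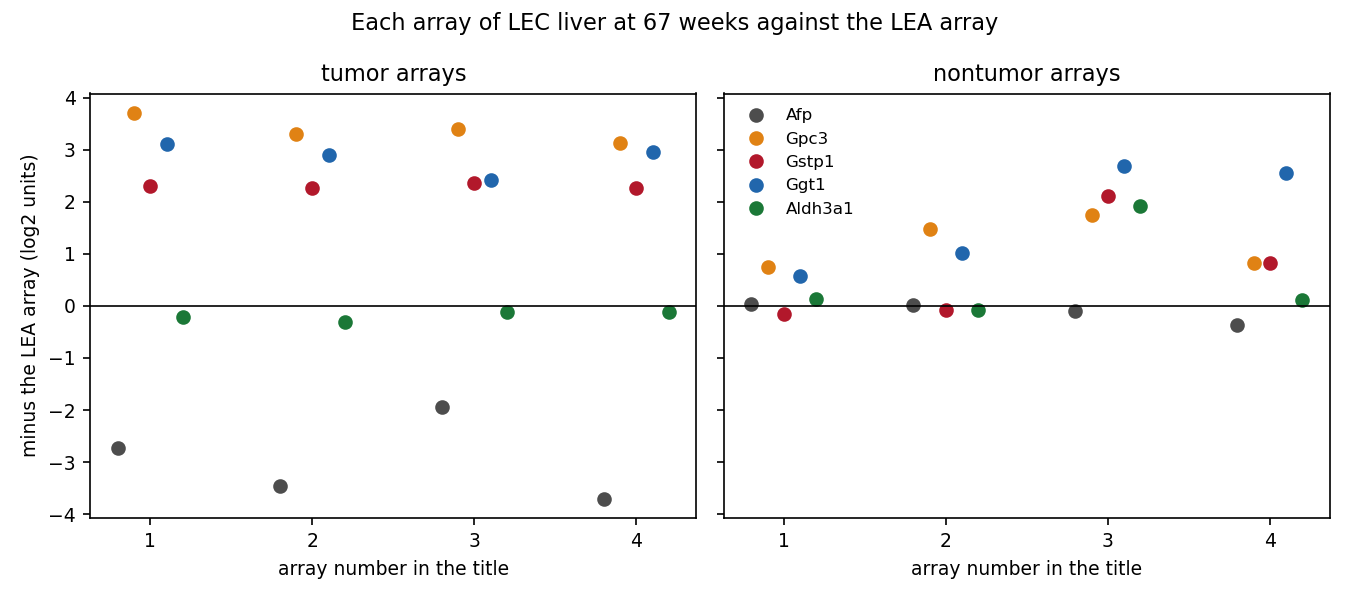
Level of each marker on each tumor array (left panel) and nontumor array (right panel) minus the single LEA array (log2 units, vertical axis), by array number in the title on the horizontal axis. Points are single arrays, coloured by gene. On nontumor array 3, Gpc3 (1.73), Gstp1 (2.11), Ggt1 (2.69) and Aldh3a1 (1.91) are all above LEA, and Ggt1 is at 2.56 on nontumor array 4. On nontumor arrays 1 and 2 Gstp1 is at -0.15 and -0.08.

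More of the other enzymes of foci fell than rose in tumors. Of 13 measured besides the markers, 3 rose and 8 fell, beside 38.8% and 29.2% of all genes, with a median difference of -0.71. Gpx2 had 12.59, 12.72, 13.10 and 12.91 on tumor arrays and rose by 4.12 ± 0.48, and the pentose phosphate enzymes Tkt and Taldo1 rose by 0.86 ± 0.08 and 0.47 ± 0.08. Abcb1a, a drug exporter, fell by 2.00 ± 0.32, the heme oxygenase Hmox1 by 1.78 ± 0.27 and Akr7a3 by 1.75 ± 0.52. Against LEA, nontumor liver had 1 of the 13 called, the conjugate exporter Abcc3, which was 1.57 ± 0.21 higher (limma adjusted p = 0.015), where 0.563% of genes were called. Among the dehydrogenases Aldh1b1, a mitochondrial enzyme, was lower in nontumor than in LEA liver (-3.61 ± 0.49; limma adjusted p = 0.016), at 6.74, 6.86, 7.88 and 8.14 on nontumor arrays, against 11.02 on the LEA array.

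Of 21 other fetal liver and tumor markers, 10 rose and 5 fell in tumors, with a median difference of 0.29. These shares are near those over all genes, of which 38.8% were higher and 29.2% lower. The largest rises were those of Krt19 (4.41 ± 0.41), the surface antigen Cd24 (4.23 ± 0.29) and osteopontin, Spp1 (3.31 ± 0.31), genes that bile duct cells also express. The falls included Igf2bp3, a fetal RNA-binding protein, at -2.44 ± 0.18, Spink1 at -1.90 ± 0.22 and the stem cell factor Sall4 at -0.83 ± 0.18, the last on 2 tumor arrays within the range of absent RNA. The imprinted fetal growth gene Igf2 had 8.69, 6.88, 11.29 and 6.96 on tumor arrays, against 8.29, 7.79, 9.86 and 8.25 on nontumor arrays, a difference of -0.09 ± 0.93 (limma adjusted p = 0.94). Of its 3 further probe sets, 2 were called lower in tumors. Its neighbour H19 had 11.43, 10.45, 13.03 and 8.35 on tumor arrays, against 10.80, 9.32, 12.06 and 11.96 on nontumor arrays, a difference of -0.22 ± 0.96 (limma adjusted p = 0.85). Tumor array 3 was the highest of the tumor arrays for Igf2, H19 and Afp.

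The 5 markers had different patterns over the 12 arrays. Gstp1 and Ggt1 were the most alike pair, with a Pearson correlation of 0.91 (Spearman 0.81). Afp and Gpc3 ran opposite at -0.87 (Spearman -0.68), and Aldh3a1 was at 0.12 with Gstp1 (Spearman -0.53). The arrays fall into tumor and nontumor groups, which all these values share, so they are given as a description.

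The genes most like each marker, among 6425 with a range of at least 1 log2 unit, differed from marker to marker. For Afp they were Nr1h3, a sterol-sensing nuclear receptor (r = 0.992), Mettl7b (0.990) and Cmbl (0.990). For Gpc3 they were the matricellular gene Ccn2 (0.989), Kdelr3 (0.983) and Itgbl1 (0.981), the last above the level of absent RNA on tumor arrays and nontumor array 3 alone, and for Gstp1 they were Isg20 (0.976), Hdgfl3 (0.976) and the membrane peptidase Mme (0.954). Ccn2 had 13.40, 13.54, 13.51 and 13.59 on tumor arrays, against 8.46, 9.56, 10.03 and 8.64 on nontumor arrays, the nontumor order of Gpc3. Mme had 6.42, 7.10, 9.27 and 7.32 on nontumor arrays, with array 3 highest as for Gstp1, and 6.45, 8.77 and 9.51 at 4, 26 and 39 weeks. For Ggt1 the nearest were S100a10 (0.961), Paqr8 (0.960) and Atp5if1 (0.958), and for Aldh3a1, whose pattern is 1 high array, Ocm (0.950), Cym (0.890) and Cep126 (0.855). Ocm and Cep126 were within the range of absent RNA on all 12 arrays, so their likeness is one of background signal. By Spearman's rho over the same arrays, 1 of the 3 genes was shared for Afp and Ggt1 and 0 for Gpc3, Gstp1 and Aldh3a1.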

How the data were processed

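Values are the log2 expression levels deposited by the authors, obtained with R 2.6.1 and RMA (background subtraction, quantile normalization, summary of probes) per the submitters' processing notes. Normalization of all 12 arrays in 1 run is not stated. Array medians were 7.39 to 7.51, and the values were used as deposited.

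Of 31099 probe sets, 57 controls were left out and 31042 tested. The annotation gave 20826 of them 1 gene, 436 several and 9780 none, and 20758 symbols were updated by Entrez identifier. A gene was represented by its brightest probe set (14217 genes).

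Group means over all 12 arrays were fitted with limma 3.58.1 in R 4.3.3 (6 residual and 2.84 prior degrees of freedom), with two-sided p-values. The test was tested on simulated data. Exact permutation tests used the 8 tumor and nontumor arrays. The 4, 26 and 39 week arrays were compared by differences alone.

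The markers and the gene lists were chosen with earlier results of these data known. From each list up to 3 called genes per direction may be named, as may any glypican, glutathione cycle gene or factor of Afp or Gstp1, with the 3 genes most like each marker. Akr1b8, Abcc3, Aldh1b1, Igf2, H19, Gstm3, Aldh1a1, Ahr, Arnt and Alb were named after their values were seen. Not every gene the rule allows is printed.

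Alternatives were another quantile normalization, subtraction of array medians, leaving out dim probe sets, a trended robust prior, array weights, fits on the groups compared alone, means over probe sets, a block for the title number, a 2-fold threshold and fits without each array. Promoter sequences are RefSeq's. Plots used Python 3.11.15 and matplotlib 3.10.9.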

Additional observations from a re-analysis of the deposited data

Results flagged for a closer look

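In 8 of 172 groups of 4 arrays checked for the named genes (4.65%), 1 array lay further from its nearest neighbour than a 95% criterion allows, and chance gives about 1 in 20 groups. Aldh3a1 was highest on nontumor array 3 at 8.59, with the next nontumor array at 6.82. Gpc4 was lowest on tumor array 3 at 10.90, with the next tumor array at 11.59. Nr5a2 was also lowest on tumor array 3, at 9.86 against 10.85 on the next. Abcb1a was lowest on nontumor array 3, at 7.75 against 8.30. Dpep1 was lowest on tumor array 2, at 8.31 against 8.65, and Itgbl1 on the same array, at 7.71 against 8.10. Cyp1b1 was lowest on nontumor array 1, at 6.85 against 7.23, and Cd3e, a T cell gene, on the same array at 7.76 against 7.92. Leaving out nontumor array 3 moved the Aldh3a1 difference between tumor and nontumor liver to -0.25, against -0.71 with all arrays.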

How the results depend on the processing

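Of the alternative values for the main results, 317 were the same and 15 counts moved by over 1.5 times. A call was gained by 4 differences and lost by 2. A tested difference was the same if it kept its direction and side of the threshold. For a count the limit was 1.5 times, and for an untested difference between single arrays the pooled SD of tumor and nontumor arrays. Afp, Gpc3 and Gstp1 kept their calls between tumor and nontumor liver in every alternative run, though the mean over both Gpc3 probe sets lowered Gpc3 to 0.95 (2.19 as reported), and to 1.63 against LEA (3.38 as reported). Ggt1 was called with array weights (1.66), and ranged from 0.76 to 1.46 with 1 array left out. Aldh3a1 ranged from -0.90 to -0.25, called without nontumor array 3, and was too dim to be tested once dim probe sets were left out. Against LEA, Gstp1 in tumors ranged from 2.27 to 2.31 with 1 tumor array left out, losing its call without array 1 or 2. The further Gpc3 probe set in tumors against LEA turned to 0.03 after another quantile normalization (-0.12 as deposited). Calls between tumor and nontumor liver numbered 19845, against 10699 without dim probe sets and 5037 past 2-fold. Calls between tumor and LEA numbered 12280, against 7656 and 5039 under the same changes. Calls between nontumor and LEA numbered 169, against 106 without dim probe sets, 318 with array weights, 38 from those groups alone and 97 to 254 with 1 array left out. Calls between nontumor liver and LEC at 4 weeks numbered 117, against 198 after another quantile normalization, 74 without dim probe sets, 377 with array weights, 9 from those groups alone and 50 to 167 with 1 array left out. Fewer probe sets or arrays enter the dim filter and the smaller fits by construction, and the cause of the other changes was not tested. With array medians subtracted, 39.5% of tumor against nontumor calls were higher, against 49.6%, as were 64.3% without dim probe sets and 68.0% past 2-fold, and array medians differ by 0.10 (7.50 on tumor and 7.40 on nontumor arrays). The labels do not say what the title numbers mark, and the arrays were not treated as paired by them; deviations of tumor and nontumor arrays of the same number correlated at 0.05, 0.14, -0.08 and 0.14. With the title number as a block there were 18957 calls, Afp at -2.85 (limma adjusted p = 0.00052), Gstp1 at 1.62 (0.011) and Ggt1 at 1.13 (0.076), and no marker changed its call. Among the lists, falls of hepatocyte markers ranged from 4 to 14 of 14, rises of glypicans from 2 to 5 of 5 and falls of glutathione transferases from 14 to 18 of 21. Signal near the level of absent RNA limits Aldh3a1 and the further Gpc3 probe set.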
